A study of Ceratina calcarata with 12 samples.

Results

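Ccalc.v2_000573, Ccalc.v2_004804, Ccalc.v2_009922 and Ccalc.v2_009923 are 4 gene models of the small carpenter bee Ceratina calcarata, out of 20693 models counted by RNA sequencing. By the mean over all 6 RNA libraries they lead the 17 genes that the study listed, among the genes it called as differentially expressed, under the term structural constituent of cuticle. They were chosen by their membership of that list and by a mean log2 CPM (counts scaled to the library total, on the log2 scale) above 9 over the 6 RNA libraries. The study asked how growing up with or without a mother relates to gene expression and DNA methylation in heads of adult daughters. In the care group the mother stayed in the nest until the brood was adult. In the no care group she was removed in the laboratory after the eggs had been provisioned, and the pollen and eggs were kept. The paper states that both groups received equivalent provisioning at the start of development, but that nourishment may still be a confounder. Every nest was built in a stem of Rhus typhina and was brought to the laboratory and opened there. All bees were sampled as newly eclosed adults. The paper describes the daughters it assayed as matched for age and size, but the days since eclosion are not given for the sequenced bees. Each group had 3 RNA libraries, each a pool of 3 heads from different nests, and 3 bisulfite libraries, each a pool of 9 heads. Errors below are thus errors among pools, and variation from bee to bee was not measured.

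The insect cuticle is a layered exoskeleton of chitin fibres embedded in structural proteins, secreted by the epidermis beneath it. Cuticle proteins are made in bursts around each moult, and in a new adult the cuticle is further thickened, hardened and darkened after eclosion. The sources give the 4 models no gene name beyond the cuticle term, so no role within the cuticle is assigned to any of them here.

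The list held only genes that the study called between these same libraries, and the threshold used the level in them. The levels and fold changes of the 4 genes are therefore a description, without a test. By the mean log2 CPM computed here, with library scaling by TMM (trimmed mean of M values), Ccalc.v2_004804 stood at 13.69, Ccalc.v2_000573 at 13.49, Ccalc.v2_009922 at 10.67 and Ccalc.v2_009923 at 9.13. A further listed gene, Ccalc.v2_015863, came out at 9.01, which is also just above the threshold. It is not one of the 4 genes named when they were chosen, and its values are given with the rest of the list. In care alone its mean CPM of 283.3 ± 109.5 was above the 254.9 ± 142.4 of Ccalc.v2_009923 (SD, n = 3 each), by less than the spread between pools, so the place of Ccalc.v2_009923 among the 4 comes from the no care libraries. The next listed gene below it, Ccalc.v2_016252, had a mean log2 CPM of 8.24. Counts were not divided by gene length, because no length was matched to these models, so ranks and shares below are of sequenced reads and not of transcripts.

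All 4 genes had higher levels in every no care pool than in any care pool, as did 18.4% of all 10763 genes tested. Together they took 1.27% ± 0.753 of all gene-model counts of a care library and 6.71% ± 0.198 of a no care library (SD, n = 3 each), a ratio of means of 5.30, or 8.03 without care replicate 2. The 2 largest, Ccalc.v2_004804 and Ccalc.v2_000573, held the first and second rank of all gene models in each no care library. Ccalc.v2_004804, Ccalc.v2_009923 and Ccalc.v2_000573 had log2 fold changes of no care over care of 2.54, 2.43 and 2.42, and Ccalc.v2_009922 had a smaller one of 1.45.

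The depth was similar across the RNA libraries, with totals of 26752341 to 31894020 counts and TMM factors of 0.958 to 1.032. Markers of head tissue were present in every library, with 2676 to 4439 CPM of the neuronal gene cpx (complexin, which binds the vesicle fusion machinery) and 539.3 to 2832 CPM of the photoreceptor gene Rh6 (a rhodopsin). Care replicate 2 stood apart from the other care pools in genes that were higher in no care. Among the 400 tested genes called higher in no care it was the highest of the 3 care pools for 311 genes (77.8%), against 38.4% of all 10763 genes tested. Among the 355 called higher in care it was the lowest care pool for 43.4%, against 33.1% of all genes tested. For the 4 genes, the fold changes, the gaps between the groups, the spread and the joint share are given with and without this library, a comparison that for the gaps, the ratio of shares and the likeness of patterns was added after seeing the data.

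Ccalc.v2_004804 was the most abundant of the 4 genes over the study. Its TMM-scaled CPM was 2081, 12320 and 4340 in care replicates 1, 2 and 3, and 36960, 34640 and 37370 in no care replicates 1, 2 and 3. Care replicate 2 was the high one of its group, 5.92 times the level of care replicate 1, while the highest no care pool was only 1.08 times the lowest. The groups did not overlap, and the lowest no care pool was 2.81 times the highest care pool, or 7.98 times without care replicate 2. The care mean was 6246 ± 5377 (3210 without care replicate 2) and the no care mean 36320 ± 1474 (SD, n = 3 each). By counts in the library the gene ranked first in all 3 no care libraries, and 33rd, 2nd and 9th in care replicates 1, 2 and 3. The log2 fold change was 2.54 with a standard error (SE) of 0.578, the widest of the 4 genes. Without that library it was 3.50 with an SE of 0.357.

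Ccalc.v2_000573 had CPM values of 3510, 7940 and 3954 in care replicates 1, 2 and 3, and of 24850, 27490 and 30290 in no care. Care replicate 2 was again the highest care pool, the groups did not overlap, and the lowest no care pool was 3.13 times the highest care pool (6.29 times without care replicate 2). Care averaged 5135 ± 2440 and no care 27540 ± 2722 (SD, n = 3 each), and the log2 fold change was 2.42 (SE 0.325). The gene took 0.362% to 0.778% of the counts in care libraries and 2.51% to 2.90% in no care libraries. Without care replicate 2 its log2 fold change was 2.88.

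Ccalc.v2_009923 was the lowest of the 4 genes. Its CPM was 183.2, 419.0 and 162.6 in care replicates 1, 2 and 3, and 1523, 1143 and 1451 in no care. The order of the care pools had the same high library, care replicate 2, and the groups were separated by a factor of 2.73 between their nearest pools, or 6.24 without care replicate 2. The mean over care was 254.9 ± 142.4 and that over no care 1372 ± 202.1 (SD, n = 3 each). The gene ranked between 391 and 1400 among gene models in care libraries and between 51 and 73 in no care libraries. Its log2 fold change was 2.43 (SE 0.357), and 2.99 without care replicate 2.

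Ccalc.v2_009922, whose identifier is next to that of Ccalc.v2_009923, differed from the other genes in the order of its care pools. Its CPM was 1439, 1073 and 557.4 in care replicates 1, 2 and 3, and 3036, 2301 and 3069 in no care. Care replicate 1 was the highest here and care replicate 3 the lowest, and the lowest no care pool was 1.60 times the highest care pool, the narrowest gap of the 4 genes. Care had a mean of 1023 ± 442.7 and no care one of 2802 ± 434.1 (SD, n = 3 each). The log2 fold change was 1.45 (SE 0.315), and it lay between 1.16 and 1.78 when each library was left out in turn. Without care replicate 2 it was 1.49, and the gap between the nearest pools stayed at 1.60 times.

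**Figure D1:**
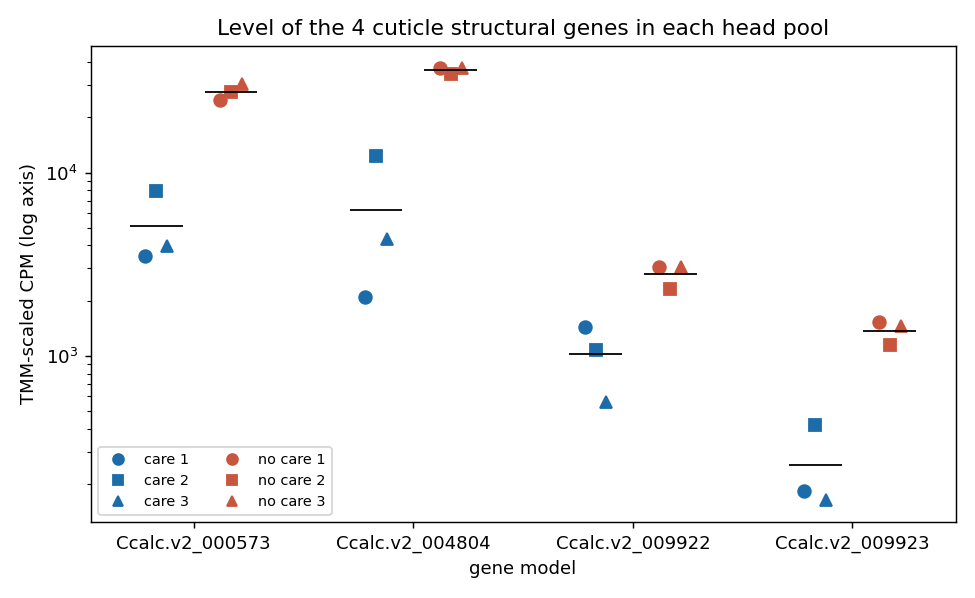
TMM-scaled CPM (log axis) of the 4 genes, with 1 point for each pool of 3 heads, blue for care and red for no care, the marker shape for the replicate number and a black line for the group mean. All no care points lie above all care points of the same gene, and care replicate 2 is the highest care pool except for Ccalc.v2_009922, where it is care replicate 1.

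In the order of levels, Ccalc.v2_004804 lay above Ccalc.v2_000573 in each no care pool, at 34640 to 37370 against 24850 to 30290 CPM. In care the order of these 2 genes was not fixed, since Ccalc.v2_000573 had more counts than Ccalc.v2_004804 in care replicate 1 (107711 against 63861) and fewer in care replicates 2 and 3. Ccalc.v2_009922 lay below both and above Ccalc.v2_009923 in all 6 libraries.

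With a quasi-likelihood test in edgeR, adjusted over all tested genes after Benjamini and Hochberg, and a threshold of 0.01, 2 of the 4 genes were called, Ccalc.v2_000573 and Ccalc.v2_009923, both as higher in no care. Of all genes tested 7.01% were called in either direction and 3.72% as higher in no care. The no care pools all lay above the care pools for each of the 4 genes and for 18.4% of all genes tested. Since the list was made from genes called in this contrast, these counts carry no evidence of their own. Ccalc.v2_004804 had the largest fold change of the 4 and was not called. The number called was 4 with edgeR's exact test and with DESeq2. The study called its genes by the exact test at the same threshold, so the calls of that test repeat the choice of the list. When 1 library was left out the number ranged from 0 to 3, and the calls among all genes changed too, from 755. Without care replicate 2 it was 3 (588 of all genes). It was 1 without no care replicate 1 (345 of all genes) or 3 (1113). It was 0 without care replicate 1 (274), care replicate 3 (171) or no care replicate 2 (323).

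The joint share of the counts taken by the 4 genes was 0.744%, 2.13% and 0.927% in care replicates 1, 2 and 3, and 6.70%, 6.52% and 6.92% in no care replicates 1, 2 and 3. The no care shares lay close together, and care replicate 2 was the highest care pool. The 95% Wilson intervals of these shares were at most 0.01 percentage points to either side and cover counting error only, which is narrower than the differences between pools. Without care replicate 2 the mean care share was 0.836%. Of the counts of all 17 listed cuticle genes, the 4 genes held 90.1% to 95.6% in care and 96.8% to 97.2% in no care. The counts left for all other gene models were 98.7% of the library in care and 93.3% in no care on average. With the 4 genes taken out before scaling, TMM factors ran from 0.974 to 1.036.

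**Figure D2:**
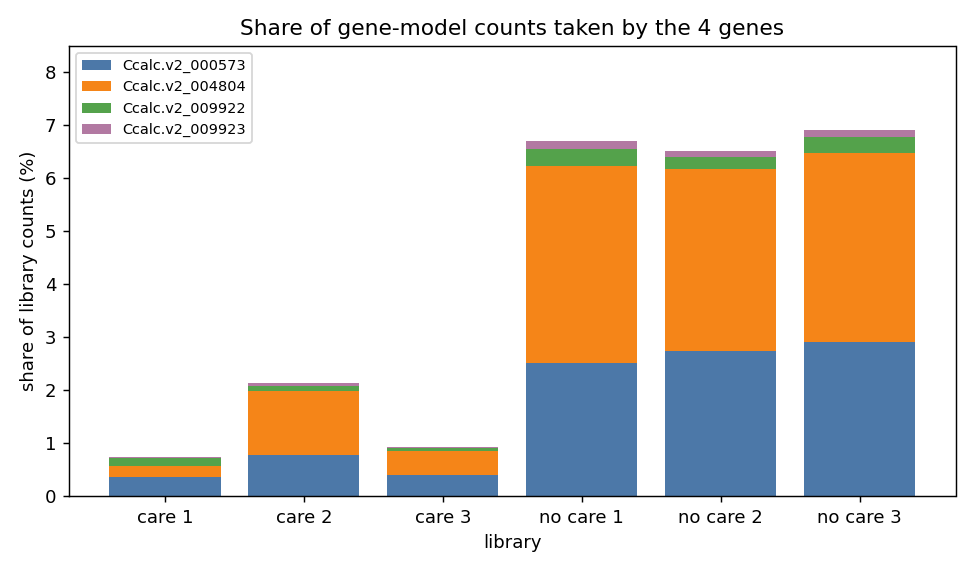
Share of all gene-model counts (percent, axis from 0) taken by the 4 genes in each of the 6 RNA libraries, stacked by gene. The no care bars reach 6.52% to 6.92%, the care bars 0.744% to 2.13%, and Ccalc.v2_004804 and Ccalc.v2_000573 make up most of each bar.

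Ratios of counts between 2 genes in the same library do not depend on how libraries are scaled, and all 6 pairs were examined as a description. The pair of Ccalc.v2_000573 and Ccalc.v2_009923 had the narrowest range of ratios over the 6 libraries. Ccalc.v2_000573 had 19.2, 19.0 and 24.3 times the counts of Ccalc.v2_009923 in care replicates 1, 2 and 3, and 16.3, 24.1 and 20.9 times in no care. These groups overlapped, with mean log2 ratios of 4.37 in care and 4.33 in no care.

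The 3 pairs with Ccalc.v2_009922 were those whose ratios did not overlap between the groups. Ccalc.v2_009922 had 7.86, 2.56 and 3.43 times the counts of Ccalc.v2_009923 in care replicates 1, 2 and 3, and 1.99, 2.01 and 2.12 times in no care. The ratio was nearly constant among the no care pools (SD of the log2 ratio 0.046) and varied among the care pools (SD 0.839), where care replicate 1 was the highest. Ccalc.v2_004804 had 1.45, 11.5 and 7.79 times the counts of Ccalc.v2_009922 in care, and 12.2, 15.1 and 12.2 times in no care. Care replicate 1 was the pool that stood apart in this ratio, with Ccalc.v2_009922 at 20.0% of the counts of the 4 genes there, against 4.93% and 6.18% in the other care pools and 3.51% to 4.57% in no care.

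**Figure D3:**
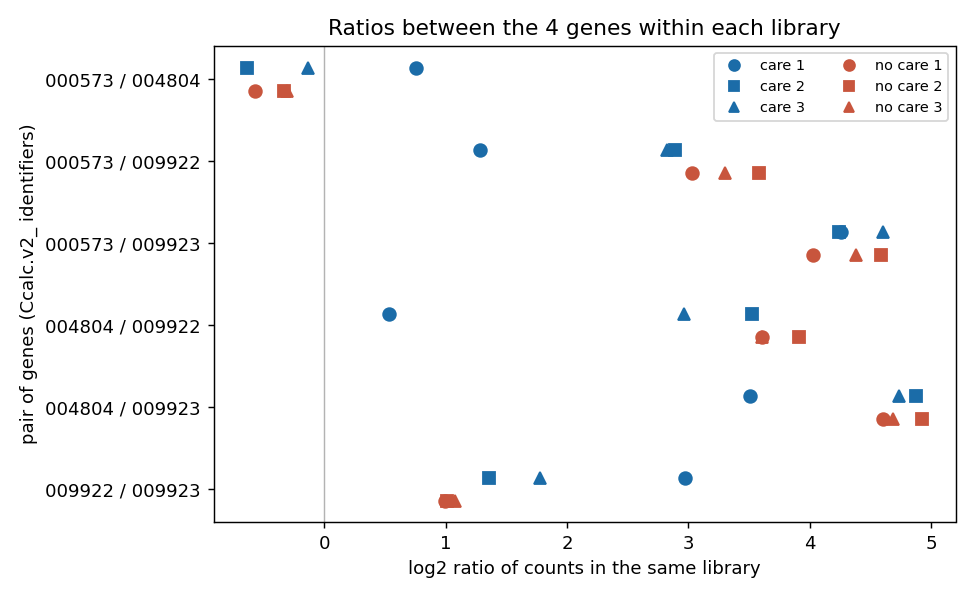
Log2 ratio of the counts of 2 genes in the same library for the 6 pairs, with care pools in blue and no care pools in red. For the pair of Ccalc.v2_009922 and Ccalc.v2_009923 the no care points sit together at 0.995 to 1.081 and the care points lie above them at 1.356 to 2.974.

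With all 6 libraries the care pools varied more than the no care pools for each of the 4 genes. The SD of log2 CPM was 1.289 in care and 0.059 in no care for Ccalc.v2_004804, 0.636 and 0.143 for Ccalc.v2_000573, 0.744 and 0.222 for Ccalc.v2_009923, and 0.700 and 0.235 for Ccalc.v2_009922. Over all tested genes the direction was the other one, with a median SD of 0.125 in care and 0.185 in no care and a higher SD in care for only 32.6% of genes. Among the 13 other listed cuticle genes 8 also had the higher SD in care. Among the 259 tested genes whose mean log2 CPM was 9 or more, the 4 genes ranked 2nd, 8th, 4th and 7th by the care SD, in the same order, and 229th, 147th, 76th and 68th by the no care SD. This rested on care replicate 2 for a pair of the genes. In a comparison added after seeing the data, the SD over care replicates 1 and 3 alone was 0.122 for Ccalc.v2_000573 and 0.121 for Ccalc.v2_009923, below their no care SDs, and 0.750 for Ccalc.v2_004804 and 0.967 for Ccalc.v2_009922, still above theirs. With 3 pools a group, each SD is itself imprecise, and these ranks are not a test.

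**Figure D4:**
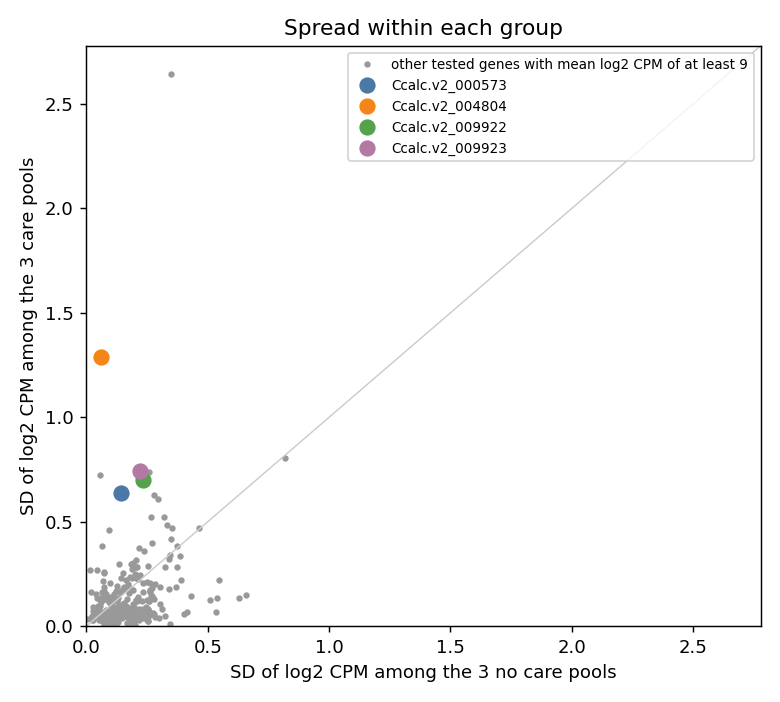
SD of log2 CPM among the 3 care pools (vertical axis) against that among the 3 no care pools (horizontal axis) for the 259 tested genes whose mean log2 CPM was 9 or more, with the diagonal drawn. The 4 genes, in colour, all lie above the diagonal, with Ccalc.v2_004804 at 1.289 in care and 0.059 in no care.

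The 13 other genes of the list were lower in level and for the most part also higher in no care. They spanned mean log2 CPM values of -0.51 to 9.01, and 12 of the 13 had a positive log2 fold change, the no care pools lying all above the care pools for the same number, 12. The median log2 fold change of the 13 was 1.38, against 2.43 for the 4 genes and 0.0031 for all genes tested. The mean level that parted the 4 from the 13 included the no care libraries, where a high level helped a gene in. The larger median of the 4 is therefore not independent of the rule. The quasi-likelihood test called 6 of the 13 as higher in no care and 0 as higher in care, while the exact test called 12 and 1 and DESeq2 called 10 and 1. At an unadjusted p under 0.05 the quasi-likelihood test had 12 higher and 1 lower. How many of all genes passed that limit was not counted, so nothing is read from these 2 numbers. Of all 10763 genes tested, 18.4% had all no care pools above the care pools. As higher and lower in no care the quasi-likelihood test called 400 and 355 of all genes, the exact test 780 and 640, and DESeq2 903 and 727. The study chose the list on these samples by the exact test, so its direction is not independent evidence and the exact test counts repeat that choice. Omitting care replicate 1 left 3 of the 13 called higher in no care, and omitting care replicate 3 left 2.

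Ccalc.v2_015863, the gene at the threshold, had CPM values of 235.2, 408.6 and 206.1 in care replicates 1, 2 and 3, and of 1124, 762.1 and 1120 in no care. It had the same high care pool as Ccalc.v2_009923 and no overlap between the groups, with a log2 fold change of 1.82 (SE 0.277), which was 2.18 without care replicate 2. Counting it in would raise the joint share to 1.30% in care and 6.81% in no care.

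The 2 other listed genes with the largest fold changes in size were both low in counts. Ccalc.v2_006875 went the other way, with CPM values of 9.515, 0.763 and 12.29 in care and of 0.171, 0.374 and 0.440 in no care, and a log2 fold change of -4.50 (SE 0.958), or -5.04 without care replicate 2. It was the one listed gene that was lower in every no care pool, and care replicate 2 was its lowest care pool. The share of all genes lower in every no care pool was not counted. Without care replicate 2 the quasi-likelihood test called 1 of the 13 genes as higher in care, where it had called 0. Ccalc.v2_005769 had CPM values of 0.619, 4.274 and 0.762 in care and of 18.37, 11.57 and 14.94 in no care, a log2 fold change of 3.02 (SE 0.654), with care replicate 2 again nearest to the no care pools. Without it the log2 fold change was 4.42.

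**Figure D5:**
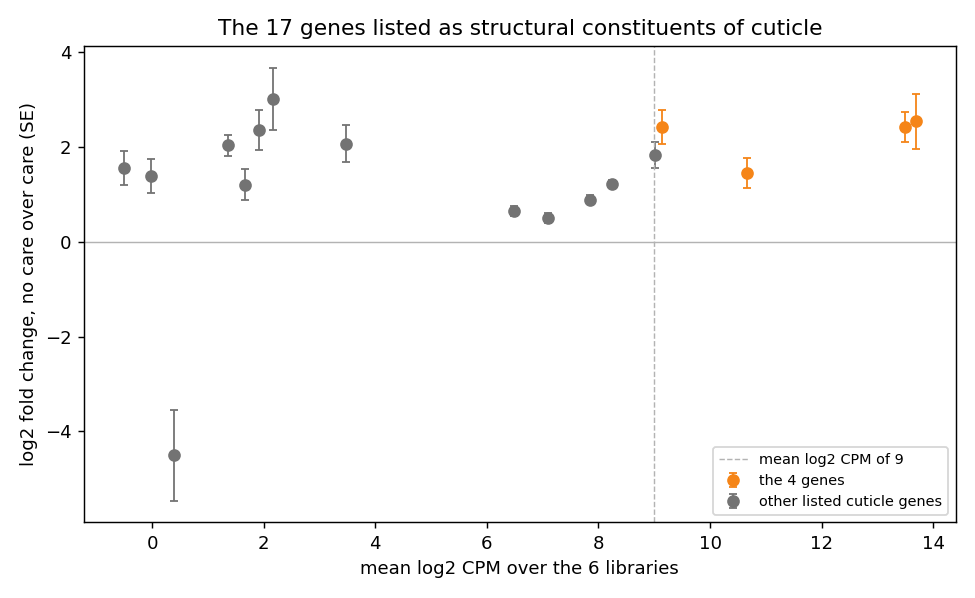
Log2 fold change of no care over care (bars are the SE of the fit) against the mean log2 CPM over the 6 libraries for the 17 listed genes, with the 4 genes in orange and a dashed line at 9. The 4 genes lie between 1.45 and 2.54, Ccalc.v2_015863 sits at the line, and Ccalc.v2_006875 at -4.50 is the listed gene below 0.

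Genes whose levels followed each of the 4 most closely over the 6 libraries were sought among the 4920 tested genes whose mean log2 CPM was 5 or more, by the root mean square (RMS) difference of log2 CPM after each gene was centred on its own mean. The nearest gene to Ccalc.v2_000573 was Ccalc.v2_009923, and the reverse, with an RMS difference of 0.202. The second nearest to Ccalc.v2_000573 was Ccalc.v2_010407 (0.351). For Ccalc.v2_009923 it was Ccalc.v2_008773 (0.335), with CPM values of 11.11, 39.08 and 15.74 in care and of 123.4, 93.37 and 73.52 in no care.

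Ccalc.v2_004804 was most like Ccalc.v2_000922, with an RMS difference of 0.412, which had CPM values of 20.95, 124.2 and 39.71 in care and of 222.2, 200.4 and 188.4 in no care. Ccalc.v2_008773 came next at 0.437, followed by Ccalc.v2_000573 at 0.460 and Ccalc.v2_009923 at 0.482. Ccalc.v2_009922 was most like Ccalc.v2_004686 (0.319) and Ccalc.v2_001421 (0.340). Its distance from its neighbour by number, Ccalc.v2_009923, was 0.699, and from Ccalc.v2_004804 it was 1.149. The distance of 0.699 placed Ccalc.v2_009923 425th of the 4920 by likeness to Ccalc.v2_009922. It placed Ccalc.v2_009922 34th by likeness to Ccalc.v2_009923. Without care replicate 2, Ccalc.v2_000573 and Ccalc.v2_009923 were still nearest to each other (0.215), and Ccalc.v2_004686 was still nearest to Ccalc.v2_009922 (0.333). Ccalc.v2_004804 was then nearest to Ccalc.v2_014719 (0.221), with Ccalc.v2_000922 next (0.394). The models likest to the 4 genes carry no name in the sources used here, and the measure is a description over 6 libraries that share the group difference.

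Neighbouring gene models can share reads, and how reads on overlapping models or several places were counted is not given in the sources used here. The models next by number were therefore compared with the 4 genes. Ccalc.v2_000574 had 106, 263 and 398 counts in care and 1661, 1113 and 905 in no care. It reached at most 0.307% of the counts of Ccalc.v2_000573 in a library, and its log2 fold change was 2.29, with an adjusted p of 0.0103 by edgeR's quasi-likelihood test, short of the threshold. Ccalc.v2_004805 had 134, 648 and 184 counts in care and 1160, 1535 and 1108 in no care, with care replicate 2 the high care pool as in Ccalc.v2_004804. Its counts were 0.101% to 0.210% of those of Ccalc.v2_004804, and its adjusted p in the same test was 0.0643 at a log2 fold change of 1.91. Whether reads are shared between these models was not tested.

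The models on the other side of Ccalc.v2_000573 and Ccalc.v2_004804 had fold changes near 0. Ccalc.v2_000572 had a log2 fold change of 0.05 and Ccalc.v2_004803 one of -0.10, with adjusted p values of 0.883 and 0.519 in the same edgeR test. Ccalc.v2_009921, with 14, 14 and 6 counts in care and 38, 11 and 24 in no care, had a log2 fold change of 1.099 (SE 0.545) and overlapping groups. It and Ccalc.v2_009924 had 4 to 38 counts in every library, where Ccalc.v2_009922 and Ccalc.v2_009923 had 5332 to 90593. The ratio of Ccalc.v2_009922 to Ccalc.v2_009923 varied from 1.99 to 7.86 between libraries, so their counts were not in 1 fixed proportion.

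Other genes of cuticle and matrix turnover were read from lists the study also made of its called genes, with the same limit. Of 6 genes under chitin catabolic process, which break chitin down, 3 were called, each higher in no care, and all 6 had positive fold changes, with a median log2 fold change of 1.21 and a range of 0.37 to 2.58. The exact test called all 6 and DESeq2 5, in the same direction. Of 5 genes under extracellular matrix structural constituent, 4 were called, each higher in no care, with a median of 1.06 and a range of 0.85 to 2.49, and all 5 were called by the exact test and by DESeq2. As higher in no care the quasi-likelihood test called 400 of all 10763 genes tested (3.72%), the exact test 780 and DESeq2 903. The summed CPM of the chitin catabolic genes was 467.1 to 477.8 in care and 844.9 to 1093 in no care.

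Of the markers of other tissues of the head that could be looked up, photoreceptor genes differed between the same pools. Fly ortholog names were held here only for the first 823 gene models by number. Other markers of these tissues were therefore not seen, and the few genes below need not represent a tissue. Of 3 photoreceptor genes 2 were called lower in no care, with a median log2 fold change of -1.54 and a summed CPM of 3368 to 4404 in care and 1526 to 2005 in no care, without overlap. The share of all genes lower in every no care pool was not counted, so this lack of overlap has no background here. Rh6 fell by 1.74 on the log2 scale (adjusted p 0.00282) and Arr1, an arrestin of the photoreceptor, fell by 1.54 (adjusted p 0.000409), both by edgeR's quasi-likelihood test. Rh3, another rhodopsin, had a log2 fold change of -0.44 and was not called (adjusted p 0.0198), while the exact test and DESeq2 called all 3 genes as lower. As lower in no care the quasi-likelihood test called 355 of all 10763 genes tested, the exact test 640 and DESeq2 727. Care replicate 2, the care pool nearest to no care in 3 of the 4 cuticle genes, had the lowest Rh6 of the care pools, with 1881 CPM against 2832 and 2810.

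Neuronal and muscle markers were not called in either direction by the quasi-likelihood test of edgeR. The summed CPM of the 5 neuronal genes was 5209 to 5288 in care and was higher in each no care pool, up to 6877, with a median log2 fold change of 0.08. The largest of them, cpx, had 2676 to 2863 CPM in care and 3733 to 4439 in no care, and Vmat was also higher in each no care pool. In contrast, nAChRalpha4 was lower in each no care pool (1147 to 1475 against 1577 to 1743), and Shab and Rab3-GEF overlapped between the groups. Of these 5 genes 0 were called, 3 had an unadjusted p under 0.05 (2 higher and 1 lower in no care), the exact test called 1 as higher and DESeq2 called 2. How many of all genes had an unadjusted p under 0.05, or were lower in every no care pool, was not counted. Higher in every no care pool were 18.4% of all genes tested. The 2 muscle genes tested had log2 fold changes of -0.23 (Mlc2, a myosin light chain) and -0.38 (Zasp66, a Z-disc protein), with summed CPM overlapping between the groups, and Argk was at 0 counts in every library. Of 4 ribosomal protein genes 3 were tested, with log2 fold changes of -0.10 to -0.02, and RpL19 was also at 0 counts in every library. Whether Argk and RpL19 lacked transcripts or had reads that were not assigned to these models was not tested. Of the muscle and ribosomal protein genes 0 were called by edgeR's quasi-likelihood test, its exact test or DESeq2, and 0 had an unadjusted p under 0.05. The part of these tissue markers in the levels of the cuticle genes was not tested, and in bulk heads fewer cells of a type and less RNA per cell cannot be told apart.

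DNA methylation is a readout that the rule did not use, and it could be looked up only for Ccalc.v2_000573, the one of the 4 genes with a position in the sources used here. The deposited tables list 278132 CpGs, which the authors kept where methylation passed the nonconversion rate in at least 1 library. None of them fell within the Ccalc.v2_000573 model, and the nearest lay 2179 bases before its start and 2066 bases after its end. The source, a table of the study on gene models in order of their numbers, is held here only for the first 823, of all lengths. Of these, 599 (72.8%) contained at least 1 listed CpG, a value that is no background for gene models in general or for models of this length. Since CpGs below that criterion are not in the tables, a level and a comparison of care and no care at this gene could not be given.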

How the data were processed

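RNA was measured in 6 pools of 3 heads and DNA methylation in 6 pools of 9 heads of C. calcarata, grouped by the sample titles. Per the paper's methods and the submitters' processing notes, the authors trimmed reads with Trimmomatic 0.32, aligned RNA reads with TopHat and deposited unnormalized featureCounts counts per gene model. They aligned bisulfite reads with Bismark 0.14.5, and the deposited tables give for each CpG the coverage, as a count of reads, and the percent of it that was methylated and that was not.

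Genes that exceeded 0.18 CPM in over 3 libraries (10763 of 20693) were tested after TMM scaling by quasi-likelihood in edgeR 4.0.16 (R 4.3.3), at a threshold of 0.01 on the p-value adjusted after Benjamini and Hochberg. The log2 CPM used a prior count of 2. Alternatives were the exact test (the test the study used), DESeq2 1.42.0, other scalings, filters and thresholds, a replicate block and each library left out. Scripts were tested on simulated data. Python 3.11.15 with numpy 2.4.6, pandas 2.3.3, scipy 1.17.1 and matplotlib 3.10.9 was used.

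Named besides the 4 genes were, of the 13 other listed genes, the one of highest level, any called in the opposite direction and the 2 of largest fold change in size; models numbered next to the 4; the 2 models likest to each; and marker genes whose values bear on them. The 4 genes and all lists were chosen with earlier results of these data known. The cuticle, chitin and matrix lists hold only genes the study called. Marker names are those of fly orthologs given by the study, in the part of its table held here. Wilson intervals are at 95%. Sequences and positions of the models are not used here except one position for counting CpGs.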

Additional observations from a re-analysis of the deposited data

How the results depend on the processing

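The log2 fold changes of the 4 genes were positive under every alternative run. Leaving out 1 library at a time gave 2.21 to 2.88 for Ccalc.v2_000573, 2.13 to 3.50 for Ccalc.v2_004804, 1.16 to 1.78 for Ccalc.v2_009922 and 2.19 to 2.99 for Ccalc.v2_009923, with the highest values of 3 of them reached without care replicate 2. The number of the 4 called was 2, and 4 with the exact test, with DESeq2, without a filter on low counts and at a threshold of 0.05, 1 with the replicate block, and 0 to 3 with 1 library left out. The number of all genes called was 755, and 1420 with the exact test, 1630 with DESeq2, 1818 at a threshold of 0.05, 371 with the replicate block and from 171 to 1113 with 1 library left out (274, 171, 345 and 323 in the fits that omit care 1, care 3, no care 1 and no care 2). Of the 13 other listed genes 6 were called higher in no care, 12 with the exact test, and 2 to 5 with 1 library left out. As higher in care 0 were called, 1 with the exact test, and 0 to 1 with 1 library left out. The cause of these changes in counts was not tested.

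Same-numbered pools did not all deviate together (correlations of deviations -0.002, -0.048 and 0.101), so the numbers are not taken to pair the samples. With the replicate block the log2 fold changes were 2.52, 2.93, 1.54 and 2.57 for Ccalc.v2_000573, Ccalc.v2_004804, Ccalc.v2_009922 and Ccalc.v2_009923. The joint share of counts moved by less than its SD under the other denominators. Counting Ccalc.v2_015863 in, chosen after seeing the data, gave 3 genes called.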
